A study of Mus musculus with 4 samples.

Results

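Glucocorticoid hormones, chiefly corticosterone in the mouse, act through 2 receptors that are themselves transcription factors. The glucocorticoid receptor (gene Nr3c1) and the mineralocorticoid receptor (Nr3c2) sit in a chaperone complex in the cytoplasm, bind the hormone, move into the nucleus and attach to short DNA elements near their target genes. The mineralocorticoid receptor binds corticosterone with the higher affinity and is abundant in the hippocampus, whereas the glucocorticoid receptor is found in nearly every cell of the brain and is engaged when hormone levels climb in stress. Some of their best known target genes were followed here together with both receptors: Fkbp5, Zbtb16, Sgk1, Tsc22d3 and Per1. The members were taken by gene symbol, with earlier results of these data known, and make up 7 of the 46983 genes in the files. Each symbol was found in all 4 libraries. On GRCm38, Fkbp5 (ENSMUSG00000024222.16) spans chr17:28399094-28517527 on the minus strand and Zbtb16 (ENSMUSG00000066687.4) chr9:48654297-48836222 on the minus strand. Sgk1 (ENSMUSG00000019970.15) spans chr10:21882184-21999903 on the plus strand, Tsc22d3 (ENSMUSG00000031431.13) chrX:140539528-140600659 on the minus strand and Per1 (ENSMUSG00000020893.17) chr11:69095217-69109960 on the plus strand. Nr3c2 (ENSMUSG00000031618.13) spans chr8:76899442-77245012 on the plus strand, and Nr3c1 has the identifier ENSMUSG00000024431.14. Reads of exons and introns were counted alike.

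Single-nucleus RNA sequencing was performed on the forebrain of 3-month-old male C57Black/6 mice after permanent middle cerebral artery occlusion (MCAO), a stroke model made by closing the artery with heat and transecting it, which leaves a small infarct in the parietal cortex. There was 1 library each for sham control and for days 1, 3 and 7 after MCAO, and each was a pool of 3 hemispheres, so that no difference between libraries could be set against animal-to-animal spread and no test was made. The labels call the control a sham control, whereas their protocol text speaks of intact cortex, and the sham library held 357 nuclei with striatal projection neuron markers, so it was not cortex alone. The numbers of nuclei that the study shows per time point fit the deposited libraries only when the later pair of time points is exchanged. The order of days 3 and 7 below is that of the sample labels.

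The libraries held 23285489 to 42963698 unique transcript counts (UMIs), and 1019 to 3076 nuclei were kept in each, with a median of 5376.5 to 10945 UMIs per nucleus. Day 1 had the fewest nuclei and the deepest ones. Of 7770 barcode sequences of kept nuclei, 9 occurred in more than 1 library. Nuclei fell into 33 clusters, and each cluster was named from a fixed list of markers or, for 5 clusters, left unnamed. The largest unnamed cluster (368 nuclei) scored best for glutamatergic neurons, with Cux2 among its leading genes. Another (117 nuclei) scored best for astrocytes, with Hspa1a, Hspa1b and Gfap among its leading genes. Unnamed nuclei are in none of the 10 classes that follow. A class name below stands for nuclei that look like that class by these markers. There were 10 classes with at least 20 nuclei in every library: oligodendrocytes, their precursors, astrocytes, microglia, glutamatergic neurons of the cortex and hippocampus, subcortical glutamatergic neurons, striatal projection neurons, interneurons of the MGE and CGE types (named for the embryonic ganglionic eminences they come from) and other GABAergic neurons. A level below is in CPM: the nuclei of one class in one library were summed, and the sum of each gene was divided by the total and multiplied by 1000000. Their intervals (95%, Poisson) and those of ratios (95%, conditional binomial) cover counting error only.

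Fkbp5 and Zbtb16 were higher than in sham control in most cell classes at days 1 and 3 after MCAO, with the 2 highest Fkbp5 ratios at day 1 in oligodendrocytes and astrocytes, whereas Sgk1, Tsc22d3 and both receptors mostly stayed within 2-fold. Sgk1 was lower in oligodendrocytes at day 7, and Per1 was lower in glutamatergic neurons in all 3 post-injury libraries, most so in that labelled day 7. Of the 105 ratios that 7 genes, 5 major classes and 3 days allow, 100 rested on at least 20 UMIs in the pair of libraries. Among these, 15 were at least 2-fold higher and 3 at least 2-fold lower than sham control. Over the same classes and days, 1.38% to 7.9% of all genes tested were at least 2-fold higher and 1.39% to 6.77% at least 2-fold lower. The count of lower ratios was thus near the share of all genes. All 15 higher ratios but 1 belonged to Fkbp5 or Zbtb16.

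**Figure D1:**
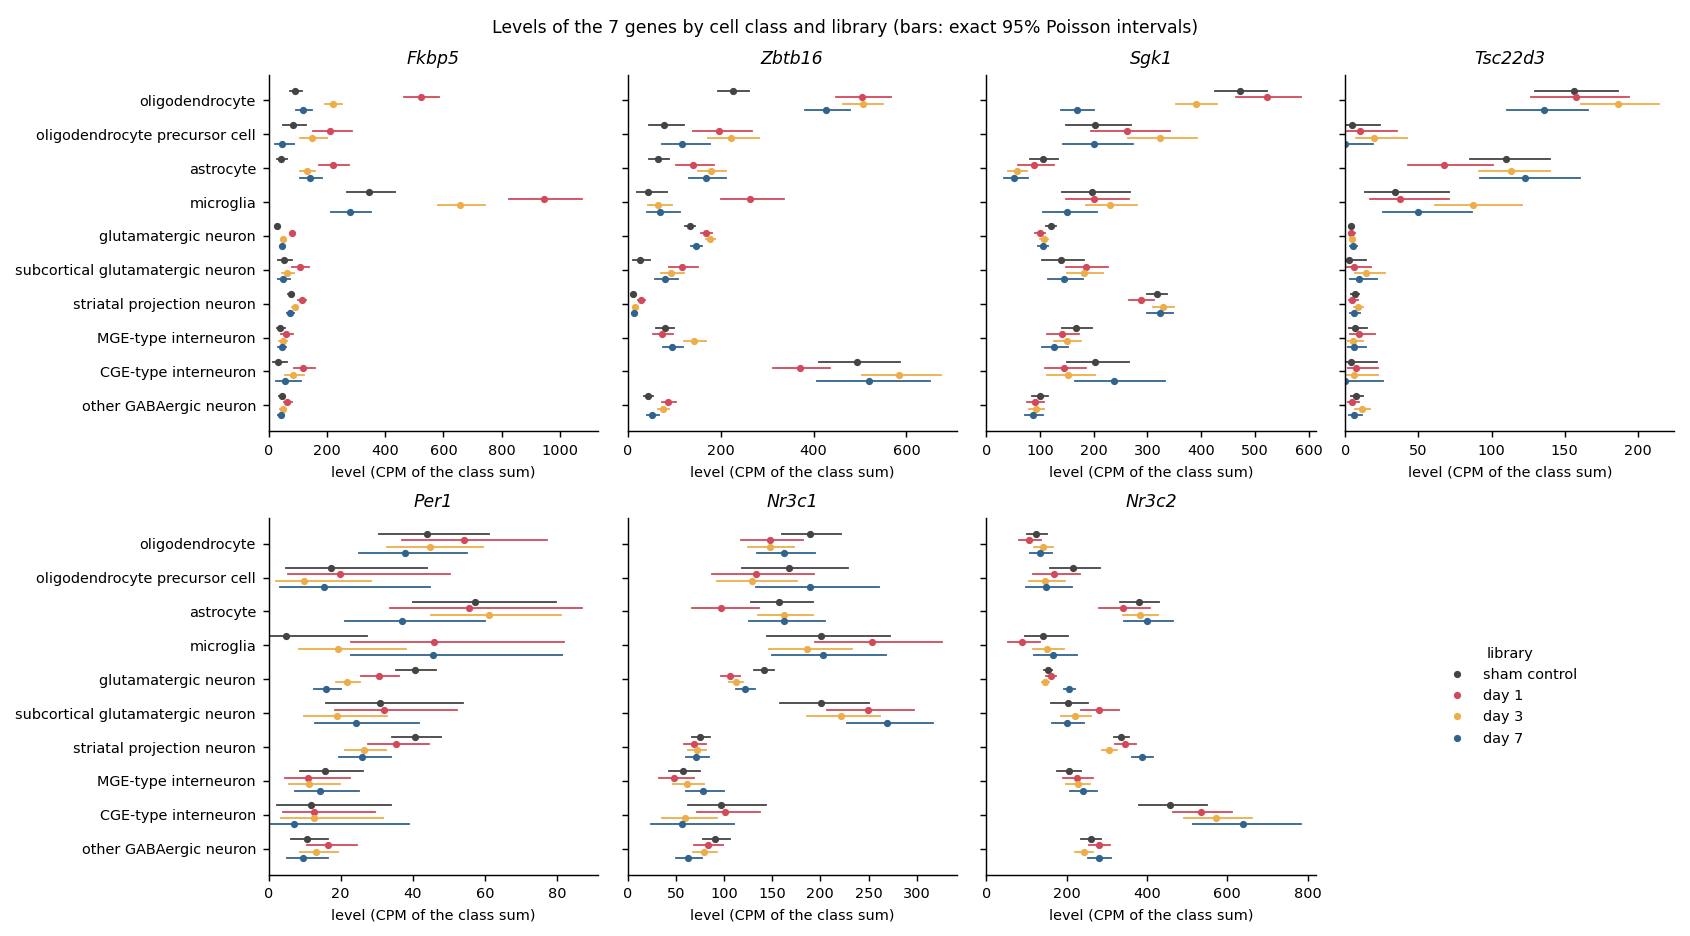
Level of each of the 7 genes in CPM (x axes, from 0, a scale of their own per gene) in the 10 cell classes (y axis), with 1 point per library and bars for the exact 95% Poisson interval. Fkbp5 at day 1 in oligodendrocytes (523 CPM) and microglia (946 CPM) stands far to the right of sham control (91.9 and 343 CPM), and the day 7 point of Sgk1 in oligodendrocytes (168 CPM) stands to the left of the other 3 libraries.

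In oligodendrocytes, 2 of 7 genes were past 2-fold at day 1 (Fkbp5 and Zbtb16, both higher), when 8.36% of all genes tested were past 2-fold in either direction. The same pair was past 2-fold at day 3, when the share of all genes was 6.03%, and Sgk1 alone at day 7, when it was lower and the share was 6.85%. In astrocytes, Fkbp5 and Zbtb16 were higher past 2-fold at days 1 and 3 (2 of 7 genes each, against 9.93% and 7.22% of all genes). At day 7 they were joined by a lower Sgk1, which made 3 of 7 against 9.65%. In glutamatergic neurons, 1 of 7 was past 2-fold at day 1 (Fkbp5, against 4.61%), 0 of 7 at day 3 (3.19%) and 1 of 7 at day 7 (Per1, lower, against 4.49%). In striatal projection neurons, 1 of 7 was past 2-fold at day 1 (Zbtb16, against 4.58%), and 0 of 7 at days 3 and 7 (3.14% and 4.44%). In microglia, where fewer UMIs were counted, 2 of the 5 genes with enough UMIs were past 2-fold at day 1 (Fkbp5 and Zbtb16, against 13.6%). One of 6 was past it at day 3 (Tsc22d3, against 11.9%) and 0 of 5 at day 7 (10.7%). Tsc22d3 had enough UMIs in microglia at day 3 alone, most of them from the day 3 library. Most of the UMIs of microglial Zbtb16 at day 1 likewise came from the day 1 library. Passing the filter and passing the fold were thus not independent for these genes.

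**Figure D2:**
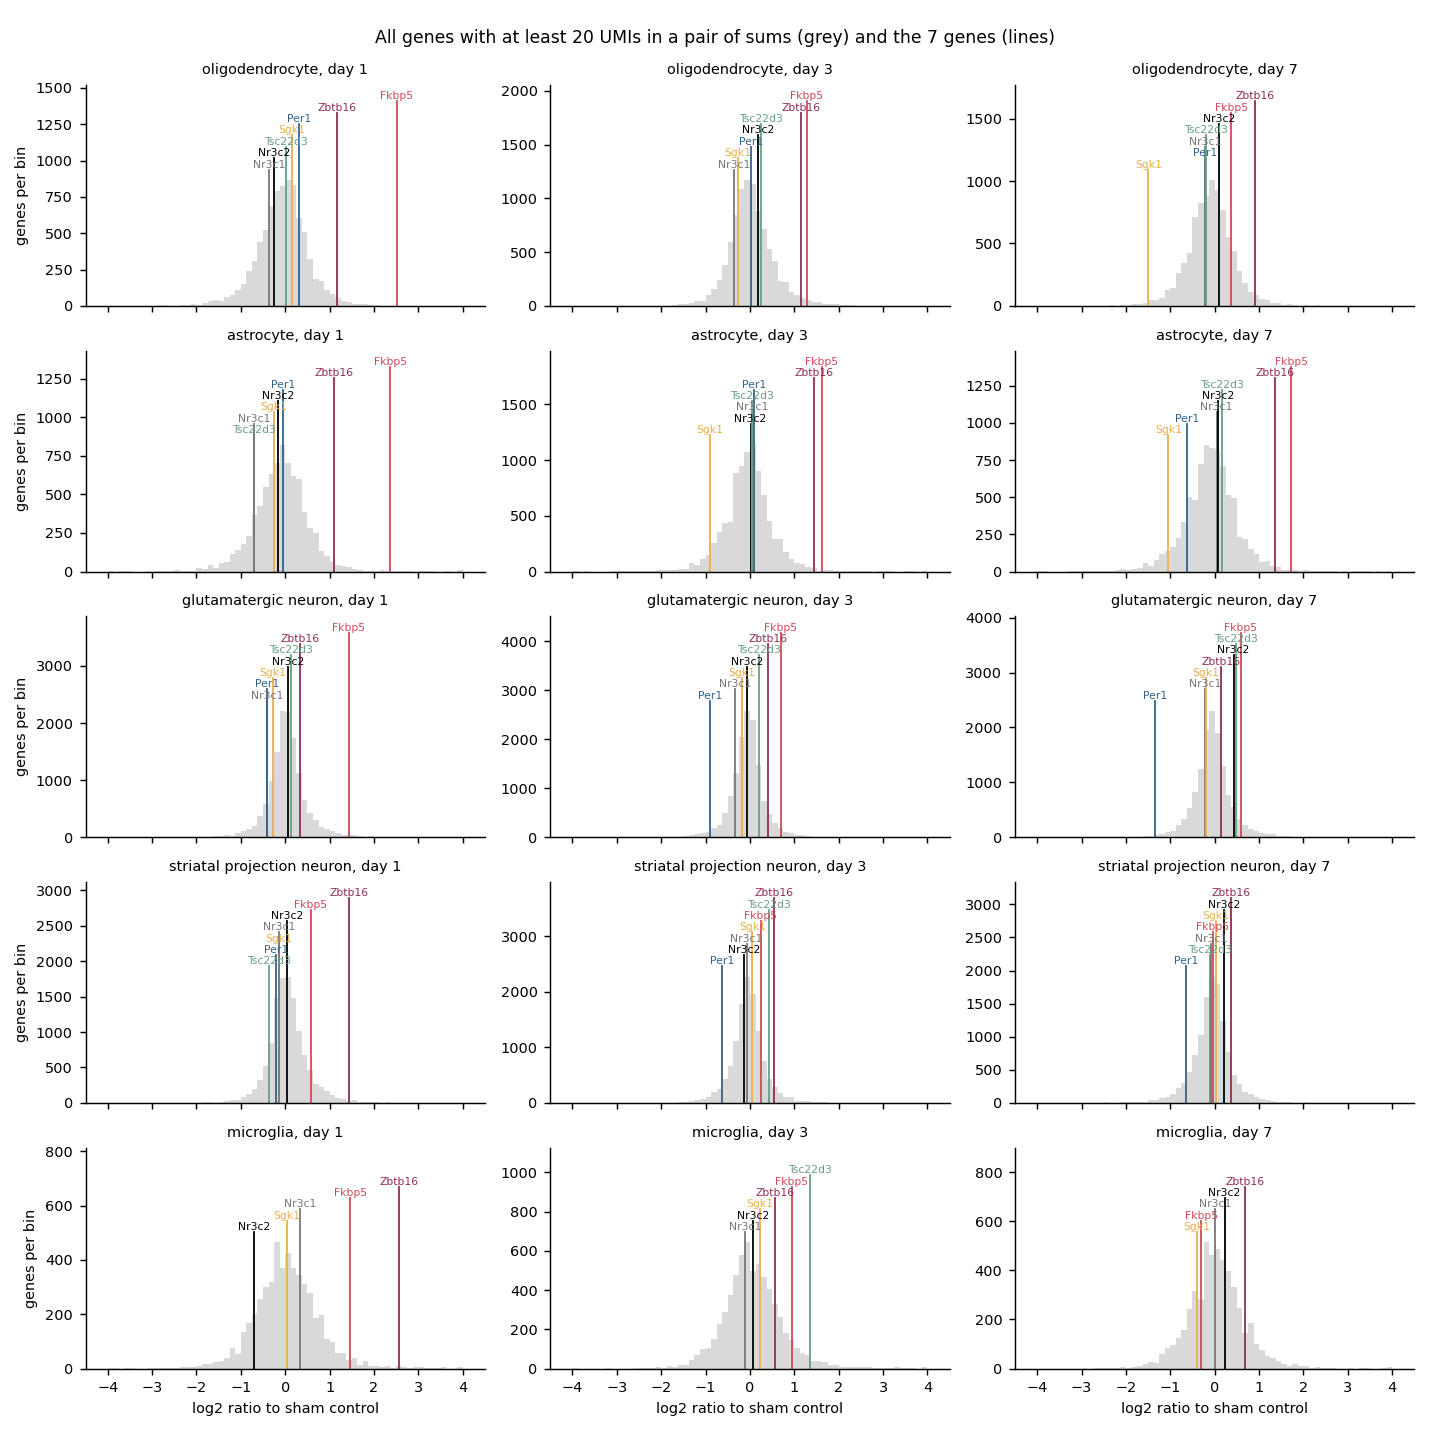
Histograms of the log2 ratio to sham control (x axis) over all genes with at least 20 UMIs in the pair of sums (grey, genes per bin, y axis), for 5 classes and 3 days, with a line at the ratio of each of the 7 genes; the height of a line has no meaning, and ratios beyond 4 in either direction are in the end bins. Fkbp5 in oligodendrocytes at day 1, at 2.51, and Sgk1 there at day 7, at -1.49, lie in the tails, while Nr3c1 and Nr3c2 lie within the bulk of each histogram.

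The stretches of DNA just before the annotated start sites of 3 of these genes show what the receptors and the clock proteins are known to read. The receptors bind as pairs to a palindrome of the short core TGTTCT and its reverse complement, 3 bases apart (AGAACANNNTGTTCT), and clock factors bind the E-box CACGTG. RefSeq sequences for GRCm38.p6 gave 1 window for Fkbp5, 6 for Sgk1, 3 for Tsc22d3, 2 for Per1 and 1 for Nr3c2. Each ran from 250 bases before a start site to 50 bases after it. The 250 bases before the start are printed for the 3 windows that hold the palindrome or an E-box, 5′ to 3′ on the strand of the gene, with every match to these motifs on either strand in capitals. Fkbp5 is on the minus strand at chr17:28486150-28486399, Sgk1 (window 5 of 6, counted along the chromosome) on the plus strand at chr10:21993640-21993889 and Per1 (window 1 of 2) on the plus strand at chr11:69098699-69098948.
Fkbp5: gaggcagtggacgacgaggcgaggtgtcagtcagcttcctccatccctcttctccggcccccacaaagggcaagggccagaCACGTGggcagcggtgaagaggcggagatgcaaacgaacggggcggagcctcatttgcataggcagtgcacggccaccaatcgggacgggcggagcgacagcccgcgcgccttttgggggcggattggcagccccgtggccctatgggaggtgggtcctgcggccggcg
Sgk1: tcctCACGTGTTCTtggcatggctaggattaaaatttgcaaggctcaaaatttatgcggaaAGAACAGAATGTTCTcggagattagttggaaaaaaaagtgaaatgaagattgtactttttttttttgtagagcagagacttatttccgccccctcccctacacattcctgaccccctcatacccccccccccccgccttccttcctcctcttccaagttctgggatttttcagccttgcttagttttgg
Per1: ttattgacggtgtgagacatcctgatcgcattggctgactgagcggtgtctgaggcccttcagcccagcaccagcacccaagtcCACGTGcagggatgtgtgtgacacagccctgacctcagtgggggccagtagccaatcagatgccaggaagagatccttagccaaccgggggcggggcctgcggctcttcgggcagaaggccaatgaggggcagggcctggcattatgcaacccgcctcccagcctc

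The palindrome was found in the Sgk1 stretch as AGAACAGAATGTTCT, from 189 bases before the start site. It occurred in 3 of 32851 RefSeq windows of the same length (0.00913%), against 6233 windows (19.0%) for the short core, which Sgk1 holds in 3 of its 6 windows and Tsc22d3 in 1 of its 3. The E-box occurred in 2349 windows (7.15%), among them those of Fkbp5, 169 bases before the start, and Per1, 166 bases before it. In the Sgk1 stretch an E-box overlaps another copy of the short core. The cyclic AMP response element TGACGTCA, present in 1.79% of windows, was in none of the windows of these genes. A match to these letters is a description of the sequence and not a measured binding site, and elements farther from the start were not searched.

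Fkbp5 encodes a co-chaperone of HSP90 that joins the receptor complex and lowers its affinity for hormone, and its induction is a standard readout of receptor activity. Its level in oligodendrocytes was 91.9 CPM in sham control and 523, 222 and 119 CPM on days 1, 3 and 7. The interval at day 1 (465 to 585 CPM) overlapped none of the others, and day 3 (195 to 253) stood apart from sham control (72.0 to 116) as well, while day 7 (95.1 to 147) overlapped it. The ratios to sham control on these days were 5.69 (interval 4.39 to 7.45), 2.42 (1.85 to 3.19) and 1.30 (0.937 to 1.80). Only 6 of the 8265 genes tested in oligodendrocytes at day 1 had a higher ratio. The class is made of several clusters, and in the largest and the second largest of them the day 1 ratio was 5.17 and 4.61.

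In astrocytes, Fkbp5 was at 42.6 CPM in sham control and at 220.1, 131 and 141 CPM on days 1, 3 and 7. All 3 post-injury libraries were above sham control, with no overlap of the intervals, and day 7 was not below day 3. The ratios were 5.16 (3.26 to 8.40), 3.08 (1.99 to 4.93) and 3.31 (2.06 to 5.46), the first of which was exceeded by 26 of 7743 genes tested. Markers of microglia summed to 159, 202, 314 and 547 CPM in the same astrocyte sums from sham control to day 7, against 7206 to 10551 CPM in microglia, and their part in the day 7 value was not tested.

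Microglia, the resident macrophages of the brain, had the most Fkbp5 of the 10 classes in each of the 4 libraries: 343 CPM in sham control, then 946, 658 and 278 CPM. Days 1 and 3 were above sham control without overlap of the intervals, and the day 7 interval (215 to 352) overlapped that of sham control (267 to 433). The ratios were 2.76 (2.10 to 3.66), 1.92 (1.47 to 2.53) and 0.809 (0.570 to 1.15). Oligodendrocyte markers in these microglial sums came to 2308, 2020, 1577 and 2444 CPM (12 of 12 detected in each library), and their part in the result was not tested. Without a small microglial cluster with many oligodendrocyte markers, a setting chosen after seeing the data, the level was 376, 957, 673 and 279 CPM.

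Among neurons, the Fkbp5 ratio at day 1 ran from 1.42 to 3.82. In glutamatergic neurons it was at 30.0, 80.6, 48.4 and 45.0 CPM from sham control to day 7, with ratios of 2.69 (2.22 to 3.27), 1.61 and 1.50 (1.21 to 1.86). All 3 libraries were above sham control, and day 1 above the others. The day 1 ratio was 3.51, 2.68, 1.84 and 3.03 in the 4 largest clusters of these neurons. In striatal projection neurons the values were 76.1, 114, 90.2 and 73.9 CPM, with ratios of 1.49 (1.25 to 1.79), 1.19 (1.00 to 1.41) and 0.971 (0.790 to 1.19), so that day 1 was above sham control and day 3 only just. CGE-type interneurons had ratios of 3.82 (1.79 to 9.35) and 2.71 (1.20 to 6.89) at days 1 and 3, the second of which was within 2-fold when nuclei were classed one by one from their markers (0.39 on the log2 scale) or libraries were merged without integration (0.98). In MGE-type interneurons the day 1 ratio was 1.48 (0.912 to 2.40), and the intervals overlapped in all libraries.

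Over the 10 classes, the Fkbp5 ratio was above 1 in 10 at day 1, with 9 intervals clear of 1, in 10 at day 3 (7 clear of 1) and in 5 at day 7 (2 clear of 1, astrocytes and glutamatergic neurons). Day 1 ratios ran from 1.42 in other GABAergic neurons to 5.69 in oligodendrocytes. Oligodendrocyte precursors were at 81.7, 212, 149 and 46.1 CPM, the lowest value being that of day 7. Subcortical glutamatergic neurons had a ratio of 2.07 at day 1 (1.22 to 3.66), but 45.3% of the UMIs behind it came from 1 nucleus, and without it the log2 ratio was 0.52 in place of 1.05. In barcodes without nuclei (at most 100 UMIs), which show RNA free in the suspension, Fkbp5 was at 31.8, 53.0, 53.0 and 49.6 CPM. The 2-fold calls of Fkbp5 in oligodendrocytes, astrocytes, glutamatergic neurons and microglia held under every processing alternative for which they could be computed.

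**Figure D3:**
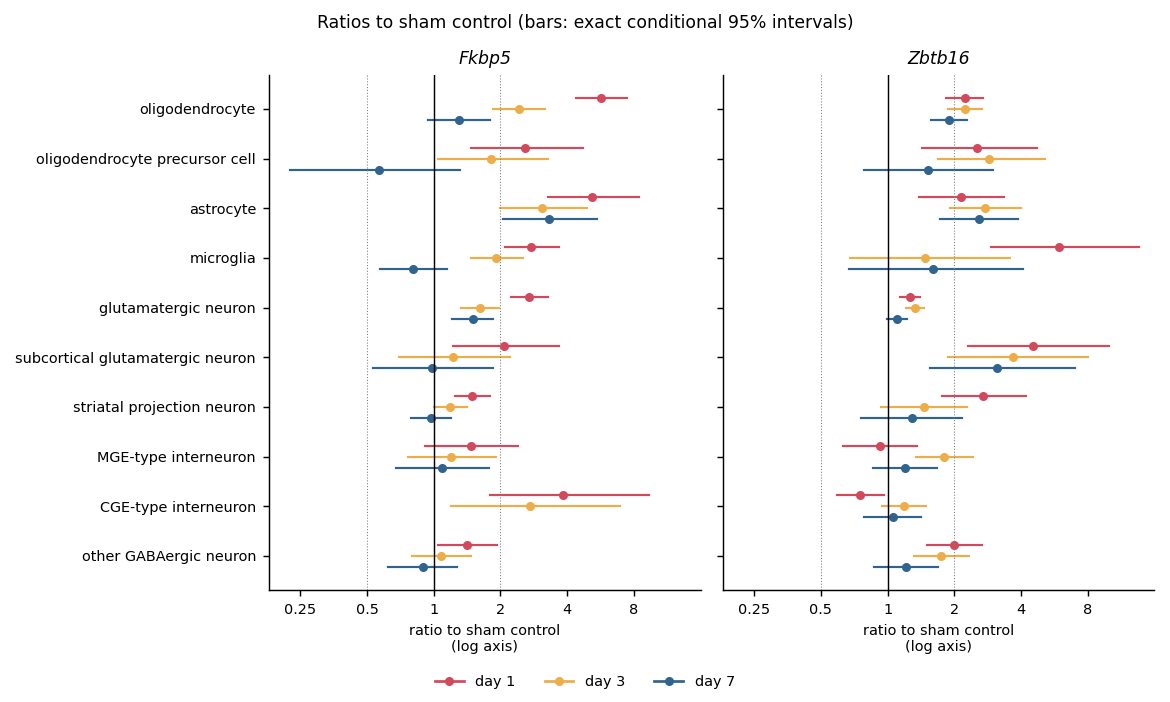
Ratio to sham control (x axes, log scale) of Fkbp5 and Zbtb16 in the 10 cell classes (y axis) at days 1, 3 and 7, for pairs of sums with at least 20 UMIs, with exact conditional 95% intervals; the solid line is a ratio of 1 and dotted lines are 0.5 and 2. Fkbp5 at day 1 lies to the right of 1 in all 10 classes, and by day 7 most of its points are near 1, astrocytes (3.31) excepted, whereas Zbtb16 in CGE-type interneurons stays near or under 1.

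Zbtb16 encodes a zinc finger transcriptional repressor (PLZF) that steroid receptors induce in many tissues. In oligodendrocytes it was at 227 CPM in sham control, at 505 CPM at both days 1 and 3, and at 427 CPM at day 7. All 3 post-injury libraries were above sham control without overlap of the intervals, and their own intervals overlapped. The ratios were 2.23 (1.84 to 2.70), 2.23 (1.88 to 2.66) and 1.89 (1.56 to 2.28). Unlike Fkbp5 in the same nuclei, whose day 7 interval lay far below that of day 1, Zbtb16 at day 7 had an interval that overlapped that of day 1. The day 1 ratio was within 2-fold when nuclei were thinned to 1000 UMIs (0.89 on the log2 scale) or averaged one by one (0.96).

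In astrocytes Zbtb16 was at 65.6, 141, 180 and 169 CPM from sham control to day 7, with ratios of 2.15 (1.38 to 3.35), 2.74 (1.92 to 4.00) and 2.58 (1.73 to 3.89). The 3 post-injury libraries were again above sham control and not apart from each other. The day 1 ratio was past 2-fold in 5 of 11 processing alternatives, with a range of 0.53 to 1.19 on the log2 scale, and is therefore near the threshold. With nuclei classed one by one, days 3 and 7 were also within 2-fold (0.65 and 0.73). In microglia, day 1 stood out: the level was 262 CPM, against 44.1, 65.3 and 70.4 CPM in sham control and on days 3 and 7, with a ratio of 5.95 (2.94 to 13.6) on 9 and 63 UMIs. In the larger microglial cluster alone the levels were 23.2, 188, 28.9 and 56.7 CPM, so the day 1 excess was present there too.

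Other classes differed among themselves in Zbtb16. Subcortical glutamatergic neurons, at 25.7 CPM in sham control, had ratios of 4.54 (2.30 to 9.96), 3.67 (1.87 to 8.05) and 3.13 (1.55 to 6.99). Oligodendrocyte precursors had ratios of 2.55 (1.43 to 4.72) at day 1 and 2.88 (1.70 to 5.15) at day 3. Glutamatergic neurons, with 134, 169, 178 and 148 CPM, had ratios no higher than 1.33 (1.21 to 1.46, day 3). CGE-type interneurons, which had the most Zbtb16 of the 10 classes in sham control (493 CPM), were at 371 CPM at day 1, a ratio of 0.752 (0.589 to 0.961) and the only interval under 1 for this gene. Striatal projection neurons had little of it (10.7 CPM in sham control, 28.9 at day 1), and their day 1 ratio of 2.71 (1.77 to 4.20) came to 0.02 on the log2 scale when nuclei were classed one by one, and to 0.80 when libraries were merged without integration. Oligodendrocyte markers in these striatal sums came to 248 CPM in sham control and 380 at day 1, while oligodendrocytes held 505 CPM of Zbtb16 at day 1, and their part in the ratio was not tested. The interval was above 1 in 8 of 10 classes at day 1, 7 at day 3 and 3 at day 7.

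Sgk1 encodes the serum- and glucocorticoid-regulated kinase, which acts on ion channels and transporters. Oligodendrocytes had 473, 523, 390.5 and 168 CPM of it from sham control to day 7. Day 7 lay below the other 3 libraries, with no overlap of its interval (139 to 201 CPM) with theirs, the lowest of which was that of day 3 (354 to 430). The ratios were 1.10 (0.945 to 1.29), 0.825 (0.716 to 0.952) and, for day 7, 0.355 (0.287 to 0.438). In the largest and the second largest oligodendrocyte cluster the day 7 ratio was 0.37 and 0.30, and the call held under 12 of 12 alternatives. In the same nuclei the summed oligodendrocyte markers were 21805 CPM in sham control and 19844 at day 7.

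Astrocytes also had less Sgk1 at the later time points, with 105, 88.0, 56.1 and 51.0 CPM and ratios of 0.839 (0.525 to 1.31), 0.534 (0.356 to 0.797) and 0.485 (0.285 to 0.799). The day 7 ratio was near the threshold and past 2-fold in 8 of 11 alternatives. It came to -0.36 on the log2 scale with nuclei classed one by one, to -0.63 with doublets kept and to -0.95 with TMM scaling. Markers of striatal projection neurons in the same astrocyte sums came to 1043, 669, 518 and 533 CPM from sham control to day 7. Those of oligodendrocytes came to 1140, 654, 1337 and 1552 CPM. The part of either in the Sgk1 ratios was not tested. Elsewhere Sgk1 differed little. Striatal projection neurons, the class with the second highest level, had 317, 288, 330 and 323 CPM, and in glutamatergic neurons all 3 ratios were between 0.824 and 0.884, with intervals under 1. Oligodendrocyte precursors were the one class with an interval above 1 (1.60 at day 3, 1.12 to 2.31). Sgk1 was also present in free RNA, at 229, 264, 237 and 171 CPM, a profile lowest at day 7.

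Tsc22d3 encodes GILZ, a leucine zipper protein that mediates anti-inflammatory effects of glucocorticoids. Among the 10 classes its level was highest in oligodendrocytes, astrocytes and microglia. Oligodendrocytes had 156, 158, 186 and 136 CPM from sham control to day 7, a range in which all ratios had intervals that included 1. Astrocytes had 110 CPM in sham control and 67.5 at day 1, a ratio of 0.614 (0.365 to 0.999), and then 114 and 123 CPM, as in sham control. Microglia had 34.3, 37.5, 87.1 and 49.7 CPM, and their day 3 ratio of 2.54 (1.11 to 6.76) rested on 7 UMIs in sham control and 36 at day 3. Oligodendrocyte precursors and all 6 neuronal classes were at 19.4 CPM or less in every library.

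Per1 is a core component of the circadian clock, a transcriptional repressor whose promoter answers both to glucocorticoids and to neuronal activity. In glutamatergic neurons it was at 40.5, 30.6, 21.8 and 15.98 CPM from sham control to day 7, each lower than the one before. The ratios were 0.754 (0.601 to 0.942), 0.537 (0.435 to 0.662) and 0.394 (0.299 to 0.515), all 3 intervals being under 1. In the 4 largest clusters of these neurons the day 7 ratio was 0.45, 0.34, 0.30 and 0.54, the last with an interval that included 1 (0.23 to 1.14). The day 7 log2 ratio was -1.34, and over 12 processing alternatives it ran from -1.60, with nuclei classed one by one, to -0.56, with every nucleus thinned to 1000 UMIs, the one alternative under which it was within 2-fold. Striatal projection neurons had 40.6, 35.2, 26.4 and 25.9 CPM, with intervals under 1 at day 3 (ratio 0.651) and day 7 (0.638). Astrocytes (57.4, 55.8, 61.2 and 37.1 CPM) and oligodendrocytes (44.1, 54.4, 44.6 and 37.8 CPM) had the highest mean levels over the libraries, though not the highest in each library, and no interval clear of 1. Microglia had 1 UMI in sham control and no more than 11 in any later library, too few for a ratio here. In free RNA, Per1 was at 98.6, 100, 76.7 and 68.7 CPM from sham control to day 7, a profile lowest at day 7 as well. With free RNA subtracted in either way, the day 7 ratio in glutamatergic neurons stayed past 2-fold. The hour at which tissue was collected, which bears on any clock gene, is not given in the sources used here.

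**Figure D4:**
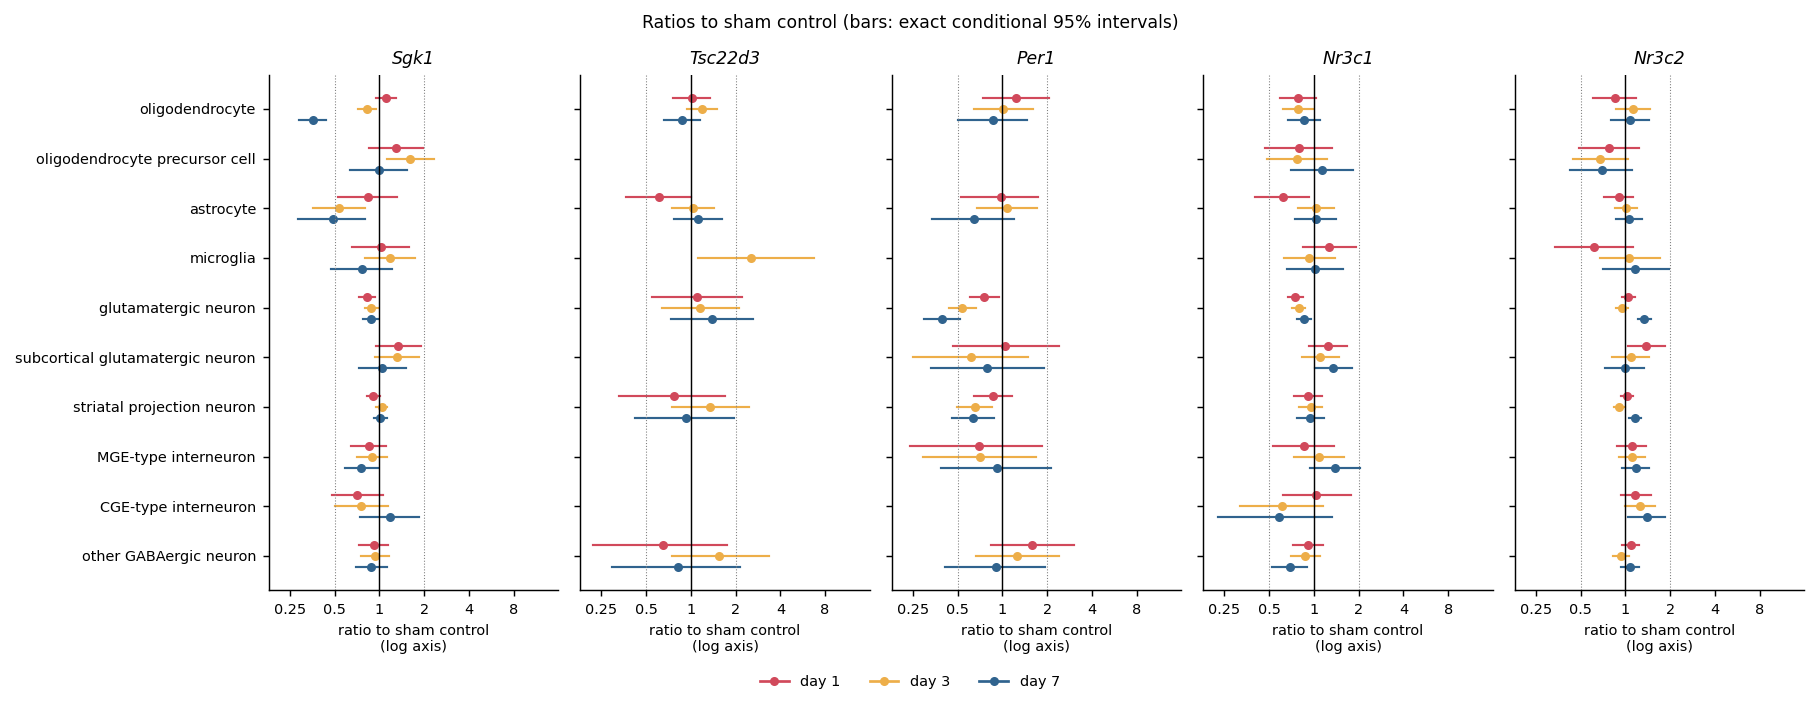
Ratio to sham control (x axes, log scale) of Sgk1, Tsc22d3, Per1, Nr3c1 and Nr3c2 in the 10 cell classes (y axis) at days 1, 3 and 7, for pairs of sums with at least 20 UMIs, with exact conditional 95% intervals; the solid line is a ratio of 1 and dotted lines are 0.5 and 2. Outside the dotted lines lie Sgk1 at day 7 in oligodendrocytes (0.355) and astrocytes (0.485), Per1 at day 7 in glutamatergic neurons (0.394) and Tsc22d3 at day 3 in microglia (2.54), and no point of either receptor.

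Nr3c1, the glucocorticoid receptor itself, was detected in all 10 classes and was past 2-fold in none. In glutamatergic neurons it was at 142, 106, 112 and 122 CPM from sham control to day 7, so that all 3 post-injury libraries were below sham control. The ratios were 0.750 (0.666 to 0.845), 0.792 (0.717 to 0.876) and 0.861 (0.770 to 0.961). In astrocytes it was at 157.5 CPM in sham control and 96.8 at day 1, a ratio of 0.615 (0.401 to 0.922), and at 162 CPM at both later days. Oligodendrocytes had 189, 147, 147 and 163 CPM, with an interval under 1 at day 3 alone (ratio 0.780, 0.619 to 0.983). Microglia had 201, 254, 186 and 203 CPM and no interval clear of 1. At day 7 the interval was above 1 in subcortical glutamatergic neurons (1.35, 1.01 to 1.80) and under 1 in other GABAergic neurons (0.685, 0.521 to 0.895). The lowest levels were those of MGE-type interneurons (61.5 ± 12.7 CPM, mean ± SD over the 4 libraries) and striatal projection neurons (71.9 ± 2.68 CPM).

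Nr3c2, the mineralocorticoid receptor, was past 2-fold in none of the 10 classes either. In glutamatergic neurons it was at 153.5, 161, 146 and 206 CPM, and day 7 was above the other 3 libraries, with a ratio of 1.34 (1.22 to 1.48). Striatal projection neurons had 336, 346, 305 and 388 CPM, with a ratio under 1 at day 3 (0.908, 0.834 to 0.989) and above 1 at day 7 (1.15, 1.05 to 1.26). CGE-type interneurons had 458, 534, 572 and 638 CPM, with a ratio of 1.39 (1.05 to 1.85) at day 7. Subcortical glutamatergic neurons had a ratio of 1.38 (1.04 to 1.84) at day 1 and of 0.987 at day 7. In glia no interval was clear of 1 in any library. Dentate granule neurons of the hippocampus, of which the libraries held only 4 to 46 nuclei, had 1357, 1147, 1632 and 1321 CPM, above each of the 10 larger classes in each library.

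The order of the classes differed from gene to gene, and the SD given here is over libraries of different conditions. With UMIs per nucleus in place of CPM, the highest class was no longer oligodendrocytes for Sgk1 or astrocytes for Per1 in any library, nor oligodendrocytes for Tsc22d3 in 2 of 4. Fkbp5 was highest in microglia (556 ± 308 CPM), followed by oligodendrocytes (239 ± 197), whose range over libraries overlapped that of microglia. Sgk1 was highest in oligodendrocytes (389 ± 157), above striatal projection neurons (314 ± 18.4) in 3 of 4 libraries. Tsc22d3 was highest in oligodendrocytes (159 ± 20.7), then astrocytes (103 ± 24.5) and microglia (52.1 ± 24.2), the first of these steps and the step below microglia being free of overlap. Zbtb16 was highest in CGE-type interneurons (492 ± 89.6) and oligodendrocytes (416 ± 132), whose ranges overlapped, and both were above the other 8 classes in each library. Per1 was highest in astrocytes (52.9 ± 10.8) and oligodendrocytes (45.2 ± 6.83), which overlapped. Nr3c1 was highest in subcortical glutamatergic neurons (235 ± 30.4) and microglia (211 ± 29.6), which overlapped, and Nr3c2 in CGE-type interneurons (551 ± 75.2), whose range was clear of astrocytes (376 ± 25.4).

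Classes with fewer than 20 nuclei in some library gave values with wide intervals. In fibroblasts (3 to 30 nuclei), which lie in the meninges and around vessels, Fkbp5 was at 357, 490, 1041 and 731 CPM from sham control to day 7. Day 3 (883 to 1219 CPM) was above sham control (215 to 558) without overlap, a ratio of 2.91 (1.80 to 4.97). Fibroblast Zbtb16 was at 94.1, 196, 473 and 459 CPM, with a day 3 ratio of 5.03 that rested on 5 UMIs in sham control. Endothelial cells, which line the vessels, had Tsc22d3 at 97.1, 492, 159 and 270 CPM, the day 1 value resting on 16 UMIs of 6 nuclei. Their Zbtb16 ratio at day 3 was 2.57 (1.67 to 4.12).

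The median log2 ratio over the 5 target genes was set beside that of all genes tested. The interval given with a median is the counting interval of the gene at the median, not an interval of the median itself. For an even number of genes it runs between the outer limits of both middle genes. In oligodendrocytes at day 1 it was 0.30, that of Per1 (interval -0.44 to 1.04), beside a median of -0.04 over all genes tested. In astrocytes at day 1 it was -0.04 (interval -0.93 to 0.80) beside -0.08, with alternatives from -1.12 to 0.58. In glutamatergic neurons it was 0.14 (-0.86 to 1.13) beside 0.02, with alternatives from -0.19 to 0.34, and both signs occurred. It was highest in microglia at day 1, at 1.46 (1.07 to 1.87) beside 0.02, where only 3 of the 5 genes had enough UMIs, and was 0.75 (interval -0.56 to 1.84) beside 0.03 at day 3, on 4 of the 5. At day 7 it was -0.31 beside 0.02 in microglia (-0.81 to 0.20), with alternatives from -0.44 to 0.54, and -0.20 (-0.60 to 0.20) beside -0.09 in oligodendrocytes.

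A wider list of 30 genes known to be induced by glucocorticoids in some tissue was examined beside the 5. In oligodendrocytes at day 1, 18 of the 30 had enough UMIs and 5 of these were past 2-fold (8.36% of all genes tested were), all higher (3.19% of all genes were higher): Nfkbia, Ddit4, Hif3a, Gpd1 and Cdkn1a. The median log2 ratio of the 18 was 0.75, beside -0.04 for all genes, and that of the genes compared at the later days was 0.04 beside -0.01 (day 3) and -0.31 beside -0.09 (day 7). At day 1 the list's median was 0.23 beside -0.08 in astrocytes and 0.15 beside 0.02 in microglia. Nfkbia, the inhibitor of NF-kB, was at 34.0 CPM in sham control and 119 at day 1 (ratio 3.51, 2.22 to 5.70). Cdkn1a, a cell cycle inhibitor also induced by p53, was at 10.1 and 77.2 CPM (7.66, 3.57 to 18.8), and Hif3a, a hypoxia-inducible factor subunit, at 51.6 and 130 CPM (2.51, 1.69 to 3.78). At day 3, 2 of 19 were past 2-fold (the metallothionein Mt2 and Mertk, higher, against 6.03% of all genes), and at day 7, 2 of 18 (Pdk4 and Tgfbr1, lower, against 6.85%).

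In astrocytes, 3 of 18 genes of the wider list were higher past 2-fold at day 1 (Cebpd, Errfi1 and Pdk4) and none lower, when 9.93% of all genes were past 2-fold and 3.16% higher. At day 3, 4 of 22 were higher and 1 lower (7.22% of all genes past 2-fold), and at day 7, 1 of 17 was higher, near the share of all genes past 2-fold (9.65%, with 3.31% higher). Cebpd, a transcription factor of the C/EBP family also induced in inflammation, was past 2-fold at all 3 days, from 13.1 CPM in sham control to 35.2, 49.7 and 46.3 CPM. Its ratios were 2.68 (1.01 to 7.57), 3.79 and 3.53 (1.49 to 9.27). Lcn2, the secreted lipocalin of reactive astrocytes, was at 11.5 CPM in sham control and 48.4 at day 3 (4.22, 1.86 to 11.2).

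In microglia, 5 of 11 genes of the wider list were higher at day 1, when 13.6% of all genes were past 2-fold and 7.9% higher, and 1 was lower, Tgfbr1, at 1720 CPM in sham control and 666 at day 1 (0.387, 0.319 to 0.468). In the same sums microglial markers came to 10133 CPM in sham control and 7206 at day 1, and glutamatergic neuron markers to 892 and 1220 CPM, and their part in these ratios was not tested. At day 3, Mt2 was higher (3.58) and Klf9 lower (0.439) of 10 genes, and 11.9% of all genes were past 2-fold. At day 7, Bcl6 was higher (3.04) and Klf9 lower (0.470) of 8, against 10.7%. In striatal projection neurons 5 of 18 were higher at day 1 (4.58% of all genes past 2-fold), among them Nfkbia (3.82, 1.87 to 8.28) and Mt2 (2.67, 1.63 to 4.45). Oligodendrocyte markers (248 and 380 CPM) and microglial markers (111 and 204 CPM) were higher in these sums at day 1 than in sham control, and their part was not tested. At day 3, 1 of 18 was past 2-fold (Mt2, 2.45), against 3.14% of all genes, and at day 7, 2 of 16 were (Dusp1, 0.369, and Mertk, 0.419), both lower, against 4.44%. In glutamatergic neurons 1 of 24 was past 2-fold at day 1, near the share of all genes (4.61%), and it was higher (Nfkbia, 3.01, 1.54 to 6.25). At day 3, 2 of 24 were, Mt2 higher (2.09, 1.41 to 3.15) and Dusp1 lower (0.421, 0.239 to 0.725), against 3.19%. At day 7, 3 of 23 were lower (2.28% of all genes were lower and 4.49% past 2-fold). These were Dusp1, a phosphatase that is also an activity-induced gene (0.350, 0.167 to 0.684), Ddit4 (0.241, 0.0716 to 0.648) and Cdkn1a (0.416, 0.133 to 1.12).

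Chaperones hold the receptors and coregulators pass on their signal. Of 18 chaperones and coregulators, 16 to 18 could be compared in each of the 5 classes, and 1 at most was past 2-fold at any day, no more than a share near that of all genes in these classes (3.14% to 13.6%). In astrocytes the co-chaperone Ptges3 was higher at day 1 (2.01, 0.969 to 4.22) and the chaperone Hspa8 lower at day 7 (0.453, 0.280 to 0.713). Hspa8 was lower in glutamatergic neurons at day 7 as well (0.486, 0.385 to 0.610). Of 11 genes of steroid supply and the central stress axis, no more than 5 could be compared in any class. H6pd, which supplies cofactor to the enzyme that regenerates corticosterone, was lower in glutamatergic neurons at day 3 (0.468, 0.296 to 0.732), with a ratio of 0.832 at day 7, and in striatal projection neurons at days 1 and 3 (0.283 and 0.483), with 0.920 at day 7. Avp, the gene of vasopressin, had a ratio of 0.185 (0.0349 to 0.633) in glutamatergic neurons at day 7, and of 0.364, 1.02 and 0.243 in striatal projection neurons from day 1 to day 7, all from levels under 10 CPM. In striatal projection neurons these were 2, 1 and 1 of 3 genes compared (4.58%, 3.14% and 4.44% of all genes past 2-fold), and in glutamatergic neurons 0 of 4, 1 of 5 and 1 of 4 (4.61%, 3.19% and 4.49%).

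A pair of further lists shows what Per1 shared with other genes of the same nuclei. Of 17 other clock genes, 16 could be compared in glutamatergic neurons: 0 were past 2-fold at days 1 and 3 (4.61% and 3.19% of all genes were), and 3 were lower at day 7 (4.49% of all genes past 2-fold, 2.28% lower). These were Nr1d1 (0.387, 0.245 to 0.598), Ciart (0.482, 0.339 to 0.678) and Bhlhe40 (0.421, 0.297 to 0.589), all of them repressors within the clock. Of 14 immediate-early genes, which neuronal firing induces within minutes, 2 of 11 were lower past 2-fold in these neurons at day 1, 3 of 12 at day 3 and 7 of 10 at day 7, and none was higher. The share of all genes lower past 2-fold was 1.65%, 1.81% and 2.28% on these days. Arc, which acts at synapses, was at 33.2 CPM in sham control and 15.8, 13.6 and 9.37 CPM after MCAO (0.474, 0.410 and 0.282). The median log2 ratio of the immediate-early genes was -0.42, -0.58 and -1.30 at days 1, 3 and 7, beside 0.02, -0.05 and -0.06 for all genes. In oligodendrocytes at day 1, 2 of 14 clock genes were past 2-fold (8.36% of all genes were): the activator Arntl was higher (3.75, 1.94 to 7.73) and Rorb lower (0.448, 0.186 to 0.976). At day 3, 3 of 15 were (Npas2 and Hlf higher, Nr1d1 lower, against 6.03%), and at day 7, 1 of 14 (Hlf, higher, against 6.85%). In astrocytes 1 of 16 was past 2-fold at days 1 and 3, Ciart, and higher (4.17 and 2.72, against 9.93% and 7.22% of all genes). In striatal projection neurons 2 of 16 were at day 1, Bhlhe40 and Rorb, both higher (against 4.58%). In microglia Rora (0.425, 0.318 and 0.386) and Rorb (0.0347, 0.191 and 0.414) were lower at all 3 days. No other of the 8 clock genes compared at days 1 and 3 was past 2-fold, and of 9 compared on day 7, Clock was also past it, and higher (2.09, 1.20 to 3.77). Of all genes in microglia, 13.6%, 11.9% and 10.7% were past 2-fold. Markers of striatal projection neurons in the same microglial sums came to 1019, 662, 614 and 348 CPM, with 9 or 10 of 12 detected. Those of glutamatergic neurons came to 892, 1220, 747 and 783 CPM, and those of astrocytes to 941, 446, 1045 and 1027 CPM. The part of any of these markers in the ratios was not tested.

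The genes whose levels were most like those of each of the 7 were found by Pearson correlation of log2(CPM + 1) over 40 points, the 10 classes in the 4 libraries, among 10015 genes. The points share libraries and depth, and a high value mostly reflects the same order of cell classes. Nearest to Fkbp5 were Wdr26 (r = 0.85), Wnk1 (0.84) and Ppp2ca (0.82), and nearest to Zbtb16 were Nfib (0.74), Nfix (0.71) and Mpdz (0.70). For Sgk1 they were Tpst1 (0.72), Pik3c2b (0.69) and Ppp2r2a (0.66), and for Tsc22d3 Daam2 (0.90), Fth1 (0.89) and Olfml1 (0.89). Per1 was nearest to Klf9 (0.72), a gene of the wider glucocorticoid list, then Arap2 (0.71) and Jup (0.70). Nr3c1 was nearest to Igf1r (0.78), Ripk1 (0.78) and Tcf7l2 (0.76), and Nr3c2 to Gm5607 (0.82), Abat (0.81) and Lgi1 (0.77).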

How the data were processed

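Single-nucleus RNA was measured in 4 libraries. The deposited values were raw counts of UMIs per gene and barcode, made by the authors with STAR 2.7.3a on GRCm38 and counted over exons and introns, with no correction for free RNA in the files; whether strand was used is not given in the sources used here, so UMIs of the small genes that overlap Fkbp5 and Nr3c2 are uncertain. Barcodes were called nuclei by a test against free RNA (over 1000 UMIs, false discovery rate 0.001). Doublets (8 to 80 nuclei per library) were removed, and clusters were made with Seurat 5.3.0 and sctransform 0.4.2 in R 4.3.3. A cluster was named where at least 3 of its markers were detected and its score, the mean of its 5 best markers, led the next class by 0.5. The definition of detection was set after the clusters were seen. For 80.8% of 6970 named nuclei, the nucleus's own markers gave the same class.

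UMIs were summed per class and library. A ratio counted as past 2-fold with at least 20 UMIs in the pair of sums. With 1 library per group there was no test, and intervals cover counting error only. The script that computes ratios was checked on simulated counts. Named genes were the 7, list genes past 2-fold at all 3 days or among the 3 largest of a list at a day, and the 3 most alike. The members and lists were chosen with earlier results of these data known. Alternatives covered naming, thinning, free RNA, thresholds, TMM scaling (edgeR 4.0.16), doublets and single nuclei. No coordinates or sequence of Nr3c1 are shown, and no promoter window for Zbtb16 was used here.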

Additional observations from a re-analysis of the deposited data

How the results depend on the processing

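No paired analysis was possible because each group was 1 library, and for the same reason no replicate could be left out. Each value was recomputed with one choice changed at a time. The interval of a median below is that of the gene or genes at the median. TMM scaling, merged libraries, every barcode over 1000 UMIs, doublets kept, single-nucleus means, equal free RNA per nucleus, no nuclei over 5% mitochondrial UMIs and no nucleus richest in the gene left the 15 medians of the target genes within their intervals and both counts of ratios past 2-fold (15 higher, 3 lower) within 1.5 times. So did cluster weights as in sham control and, for the microglial medians and both counts, leaving out the small microglial cluster, both chosen after seeing the data. Thinning each nucleus to 1000 UMIs moved the median log2 ratio to -1.12, 1.84 and 1.47 in astrocytes (days 1, 3 and 7), -0.088 in glutamatergic neurons at day 7 and 0.092 and -0.031 in striatal projection neurons at days 1 and 3, and left 8 higher ratios; 6 of the others then had under 20 UMIs, and Zbtb16 in oligodendrocytes at day 1 was within 2-fold. Classing nuclei one by one moved the striatal day 1 median to 0.013, a minimum of 50 UMIs to 0.22 (and the glutamatergic day 7 median to -0.027), and a minimum of 5 UMIs moved the microglial day 7 median to 0.54. Subtracting free RNA in proportion to UMIs gave 6 lower ratios, and a fold of 1.5 gave 11. All of these moved medians lay outside the interval of the reported value, and apart from those of astrocytes they changed sign. With UMIs per nucleus in place of CPM, Sgk1 and Per1 had another highest class in all 4 libraries, Tsc22d3 in 2 and Fkbp5 in 1. The smallest sums, such as the 21 CGE-type interneurons of day 7, had wide intervals.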

Other observations

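The mitochondrial gene mt-Nd3 held 0 UMIs in the day 3 sums of the 5 major classes, against 93 UMIs in sham control oligodendrocytes and 135 in sham control astrocytes. Other mitochondrial genes were not low there: mt-Cytb was 2.40-fold higher at day 3 than in sham control in microglia (2.06 to 2.81) and 2.35-fold higher in striatal projection neurons (2.18 to 2.55). At days 1 and 7 mt-Nd3 was also lower past 2-fold in oligodendrocytes and microglia. At day 1 it was so in astrocytes (0.186) and striatal projection neurons too, whereas in glutamatergic neurons it was past 2-fold at day 3 alone. The cause was not tested, and removing nuclei with over 5% mitochondrial UMIs left each ratio of the 7 genes within its interval.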
